A study of Mus musculus with 6 samples.

Results

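The interferon-stimulated genes are the transcripts that cells raise when they sense interferon, a secreted antiviral signal, or foreign nucleic acid. Here they are a list of 38 mouse genes, picked by name as the rows of an expression table whose gene symbol is on the list, and followed line by line in RNA-seq of mouse cells that were grown out of liver tumors. Of the 38 genes, 37 had a row among the 20856 genes with values, and *Trex1* was not analysed here. A filter on low values (an RPKM of 1 or more in 3 or more of the 6 libraries) was passed by 21 of the 37, which were tested among 11617 genes in all. The other 16 were expressed too weakly to be fitted and are given below by their reads. RPKM is the number of reads per kilobase of transcript, scaled to the total reads of the library.

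Each line was grown out of a tumor of a C57BL/6 mouse. The tumors had been started by hydrodynamic injection into the liver of a *Myc* transposon together with the plasmid px330, which carries Cas9 and a guide RNA. The guide was aimed at *Trp53* in 3 lines (*Myc*; sg*Trp53*) and at *Kmt2c*, also called *Mll3*, in the other 3 (*Myc*; sg*Kmt2c*). All 6 lines thus share the *Myc* transgene and Cas9 exposure, neither genotype has both targeted genes intact, and a line with an untargeted guide was not analysed here. The cells were kept untreated on collagen, in medium with serum, and no interferon was added. Each library is a separate line with its own tumor history, and p-values measure the spread between such lines. Replicates 2 and 3 of sg*Kmt2c* are named 2A and 2T1 in the table, and they were treated as independent because the methods of the study place the lines of a genotype in different mice.

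The depth of the libraries sets the precision. The sg*Trp53* libraries held 5312182 to 6878625 reads on genes and the sg*Kmt2c* libraries 3680068 to 4704539, so that every sg*Kmt2c* library was shallower. For a transcript of 2 kb, 1 read corresponded to 0.0726 to 0.136 RPKM. *Trp53* itself lay at 17.2 to 19.4 RPKM where it had been targeted and at 92.2 to 124 RPKM where it had not, whereas *Kmt2c* transcript overlapped (18.4 to 24.2 against 9.51 to 25.0 RPKM). The defining hepatocyte transcript *Alb* was at 0.644 to 4.36 RPKM in all lines, so the liver cell origin was not visible in it. Keratins *Krt8* and *Krt18* were present in every line, from 9.27 RPKM upwards. The leukocyte markers were uneven: *Cd3e* had no read in any line and *Ptprc* did not exceed 0.0655 RPKM, whereas *Cd68* was at 1.71 to 7.60 RPKM in every line and *Lyz2* at 17.1 to 45.3 RPKM across the sg*Trp53* lines.

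As background, type I interferons bind the receptor chains IFNAR1 and IFNAR2, whose kinases JAK1 and TYK2 phosphorylate STAT proteins. STAT2 and IRF9 are parts of a complex that binds the interferon-stimulated response element (ISRE) in promoters. Type II interferon acts through STAT dimers on the gamma-activated site (GAS), and IRF1 is a classic target of it. Many of the induced proteins sense or degrade viral RNA, and several of them, including IRF7, IRF9, STAT2, RIG-I and MDA5, are themselves parts of the pathway that induces them.

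The promoters of members that the results below turn on are shown with their motif matches, so that the kind of element upstream of each can be seen. Promoters were the RefSeq windows from 250 bases before to 50 bases after an annotated start (GRCm38.p6), 300 bases long, printed 5′ to 3′ on the gene's strand. The ISRE was searched as GAAANNGAAA and the GAS as TTCNNNGAA, on both strands, and the capitals mark every match. In the first 4 genes every sg*Kmt2c* line was below every sg*Trp53* line, and the last had no read in sg*Kmt2c* replicate 1. The *Irf1* window (chr11:53769764-53770063, plus strand) has a GAS match, that of *Gbp2* (chr3:142620413-142620712, plus strand) an ISRE match, that of *Gbp7* (chr3:142530086-142530385, plus strand) an ISRE and 2 GAS matches, that of *Ifit2* (chr19:34550444-34550743, plus strand) a GAS match, and that of *Ifitm3* (chr7:141010695-141010994, minus strand) 2 ISRE matches and a GAS match that overlaps the second of them.
Irf1: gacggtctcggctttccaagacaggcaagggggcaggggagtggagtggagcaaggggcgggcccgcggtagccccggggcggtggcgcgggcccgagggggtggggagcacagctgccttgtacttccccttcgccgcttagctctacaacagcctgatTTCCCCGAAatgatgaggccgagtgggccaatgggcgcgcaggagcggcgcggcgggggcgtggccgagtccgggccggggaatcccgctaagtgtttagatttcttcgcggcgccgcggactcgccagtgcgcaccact
Gbp2: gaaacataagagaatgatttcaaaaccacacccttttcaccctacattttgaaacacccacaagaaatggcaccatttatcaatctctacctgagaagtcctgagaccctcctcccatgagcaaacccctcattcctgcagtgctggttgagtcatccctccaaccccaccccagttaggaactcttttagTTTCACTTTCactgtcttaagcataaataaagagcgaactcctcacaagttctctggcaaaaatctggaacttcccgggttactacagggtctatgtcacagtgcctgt
Gbp7: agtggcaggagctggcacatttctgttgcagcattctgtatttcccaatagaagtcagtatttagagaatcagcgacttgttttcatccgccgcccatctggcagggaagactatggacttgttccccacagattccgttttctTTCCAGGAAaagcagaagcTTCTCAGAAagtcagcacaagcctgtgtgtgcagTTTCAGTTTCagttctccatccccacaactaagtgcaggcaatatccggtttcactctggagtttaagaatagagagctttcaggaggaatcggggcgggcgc
Ifit2: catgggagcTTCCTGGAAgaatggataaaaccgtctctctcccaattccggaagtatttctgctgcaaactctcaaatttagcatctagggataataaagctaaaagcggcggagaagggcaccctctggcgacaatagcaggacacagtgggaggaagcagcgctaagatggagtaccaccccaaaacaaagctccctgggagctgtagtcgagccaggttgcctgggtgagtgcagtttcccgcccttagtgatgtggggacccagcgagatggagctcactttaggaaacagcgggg
Ifitm3: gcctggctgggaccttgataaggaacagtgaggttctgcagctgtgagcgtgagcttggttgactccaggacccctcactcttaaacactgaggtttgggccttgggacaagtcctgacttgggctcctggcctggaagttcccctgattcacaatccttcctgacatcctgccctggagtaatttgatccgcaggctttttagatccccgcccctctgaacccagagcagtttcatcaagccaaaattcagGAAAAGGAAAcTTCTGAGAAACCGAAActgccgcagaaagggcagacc

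*Irf1* and *Ifit2* each have a second listed window with no match. Of the 37 measured members 30 have an entry in the promoter table, and an ISRE match lay in 15 of them (*Bst2*, *Ddx58*, *Eif2ak2*, *Gbp2*, *Gbp3*, *Gbp7*, *Ifih1*, *Ifit1*, *Ifit3*, *Ifitm3*, *Isg15*, *Oas1a*, *Oas3*, *Rsad2* and *Stat2*). The same letters occur in 3.99% of all 27025 genes with a promoter (3.44% of 32851 windows). *Isg15* had 3 ISRE matches in a row, the most of any member. In *Gbp2* and *Gbp7* the match began 59 and 53 bases before the start, and in *Ifitm3* both began just after it. A GAS match lay in 9 of the 30, against 9.55% of all genes (8.30% of windows). *Dhx58*, *Oas2*, *Parp14*, *Parp9*, *Rtp4*, *Usp18* and *Zbp1* have no entry. A match is a description of letters and does not show that a factor binds there.

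The question put to the expression data was how the interferon-stimulated genes differ between lines of the 2 genotypes. Among the 21 tested members, 20 had a lower mean log2 level in the sg*Kmt2c* lines, and the exception, *Stat2*, was at a log2 fold change of 0.01. The median log2 fold change (sg*Kmt2c* against sg*Trp53*, on the log2(RPKM + 1) scale) was -1.0, with a range from -1.57 to 0.01, whereas the median over all 11617 genes was -0.09 and 58% of all genes were below 0. No member passed an adjusted p-value of 0.05 in limma in either direction, where 0.129% of all genes did (0.0775% lower and 0.0516% higher), and none did in a fit of the recovered reads with limma voom. At an unadjusted p-value of 0.05, limma placed 1 member lower, *Irf1*, and none higher, and voom likewise called only *Irf1*. That is 1 of 21 where 5.34% of all genes were lower and 3.25% higher at the same threshold, a share near the background. Under median-of-ratios scaling 4.09% of all genes were lower, of 8.26% in either direction, against 5.34% of 8.58% here. The smallest adjusted p-value of a member was 0.489 (limma).

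In 4 of the 21 tested members every sg*Kmt2c* line was below every sg*Trp53* line (*Irf1*, *Gbp2*, *Ifit2* and *Parp14*), where 10.4% of all genes showed this, and in none was every sg*Kmt2c* line above, where 5.72% of all genes were. Over all 37 members with a read, weakly expressed ones included, the sg*Kmt2c* lines had the lower mean RPKM in 31 and the higher in 6, where 55.4% of all 19183 genes with a read were lower. Their genotypes did not overlap in 9 of the 37 (24.3%, all lower in sg*Kmt2c*), where 8.84% of all genes were lower without overlap and 4.32% higher. Some of the 9 rest on a single read: the lowest sg*Trp53* line had 1 read of *Zbp1* and of *Oasl2*, against 0 in every sg*Kmt2c* line. For *Rsad2* the nearest lines had 2 reads against 1. Every sg*Kmt2c* library was shallower, and the shares were not matched on level. When any single line was left out, the mean was lower in 29 to 34 of the 37, beside 51.5% to 57.6% of all genes. The count without overlap was 9 to 18 in these settings, beside 12.3% to 16.6% of all genes. The highest were 18 without sg*Trp53* replicate 1 (48.6% against 14.0% of all genes) and 17 without sg*Kmt2c* replicate 2 (45.9% against 14.2%). The lowest was 9 without sg*Trp53* replicate 3 (24.3% against 12.3%).

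**Figure D1:**
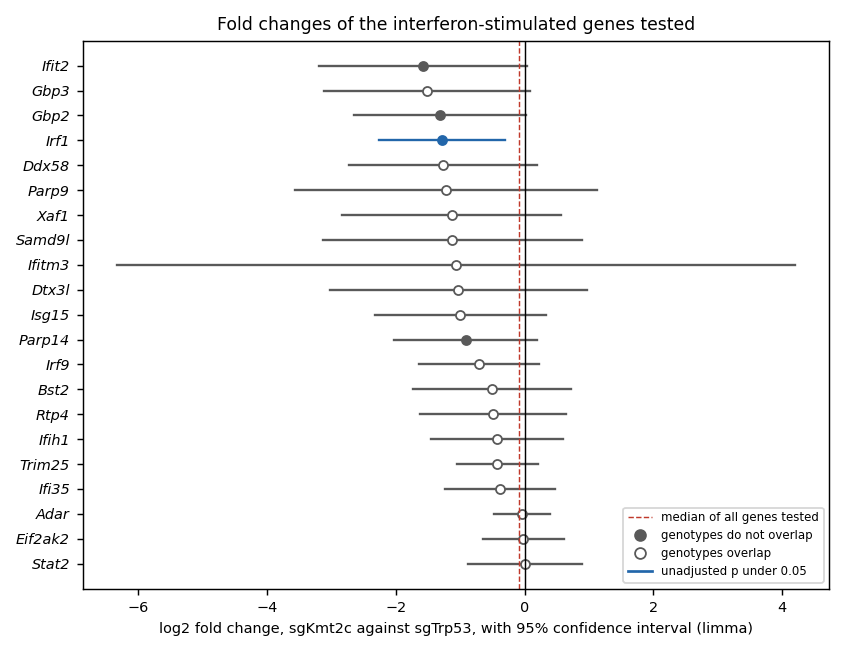
Log2 fold change of each of the 21 tested interferon-stimulated genes (x axis, sg*Kmt2c* against sg*Trp53*, on the log2(RPKM + 1) scale) with its 95% confidence interval from limma, ordered from the lowest at the top. Filled points are the 4 genes whose genotypes do not overlap, *Irf1* is drawn in blue, and the dashed line is the median of all 11617 genes at -0.09. All points but *Stat2* lie below 0, and only the interval of *Irf1* leaves out 0.

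The size of the median depended on 2 lines. It was -0.56 without sg*Kmt2c* replicate 1 and -0.63 without sg*Trp53* replicate 2, and between -1.15 and -0.95 when any of the other 4 lines was left out. Of the 21 tested members, 13 had their highest value in sg*Trp53* replicate 2 (61.9%, against 19.0% of all genes tested) and 11 their lowest, alone or tied at 0, in sg*Kmt2c* replicate 1 (52.4% against 36.1%). A sg*Trp53* line was highest in 19 of the 21 members (90.5% against 45.2% of all genes). A sg*Kmt2c* line was lowest, or tied for it, also in 19 (90.5% against 66.5%).

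Relative to the mean of the 6 lines, the median member was at -0.03, 0.81 and 0.39 log2 units in sg*Trp53* replicates 1, 2 and 3, and at -0.99, 0.04 and -0.18 across the sg*Kmt2c* replicates. The genotypes overlap on this measure, since sg*Kmt2c* replicate 2 stood above sg*Trp53* replicate 1. Members with no read at all numbered 15 of 37 in sg*Kmt2c* replicate 1 and 8 in each of the other sg*Kmt2c* lines, against 5, 1 and 0 across the sg*Trp53* lines. Replicate 1 is the deepest of the sg*Kmt2c* libraries. Of all genes with a read, 24.8%, 24.0% and 20.6% had none in sg*Kmt2c* replicates 1, 2 and 3, and 16.3%, 19.0% and 14.2% had none across the sg*Trp53* replicates. The 8 of 37 in sg*Kmt2c* replicates 2 and 3 and the 5 in sg*Trp53* replicate 1 were near these shares. The count in sg*Kmt2c* replicate 1 was above its share, and those in sg*Trp53* replicates 2 and 3 were below theirs. Lines of a genotype differed more in these genes than in most: the median SD of log2 levels within a genotype was 0.642 (sg*Trp53*) and 0.724 (sg*Kmt2c*) for the tested members, against 0.255 and 0.412 for all genes tested. The members were also expressed at a lower level, with a median of the mean log2 level of 2.39 against 3.85. The SDs were not matched on level, so the part of counting noise in them was not tested.

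**Figure D2:**
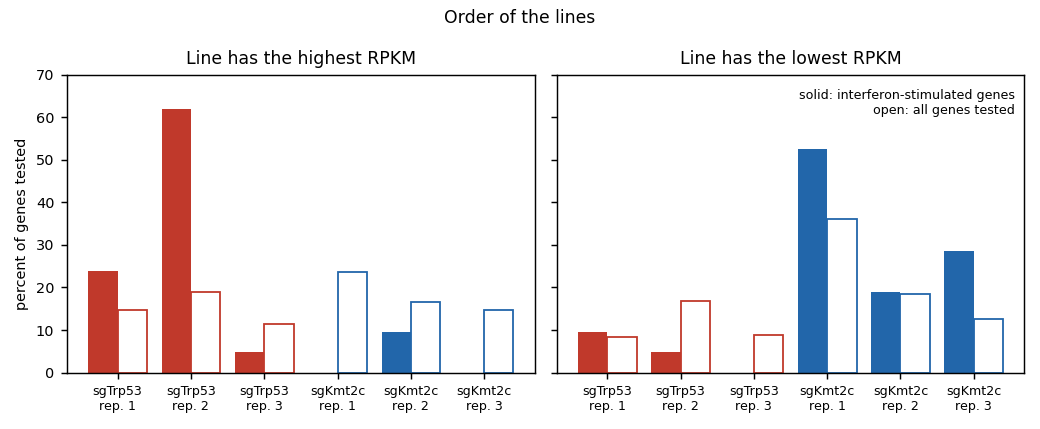
Share of genes (y axis, percent of the genes tested) for which each line had the highest (left) or the lowest (right) RPKM, ties counted for each tied line, for the 21 interferon-stimulated genes (solid bars) and all 11617 genes (open bars). The solid bars stand above the open ones most clearly for sg*Trp53* replicate 2 on the left (61.9% against 19.0%) and for sg*Kmt2c* replicate 1 on the right (52.4% against 36.1%).

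Among the transcription factors, *Irf1* (chr11:53770014-53778374), which switches on many interferon targets and is itself induced by interferon gamma, stood at 20.0, 30.8 and 34.5 RPKM in sg*Trp53* replicates 1, 2 and 3 and at 5.66, 15.5 and 14.2 RPKM across the sg*Kmt2c* replicates. The genotypes did not overlap, and sg*Kmt2c* replicate 1 was the lowest line. The means were 28.4 ± 7.52 and 11.8 ± 5.35 RPKM (SD, n = 3 lines each). This was a log2 fold change of -1.28 with a standard error of 0.409 and a 95% confidence interval from -2.25 to -0.30, at an unadjusted p-value of 0.0181 and an adjusted p-value of 0.489 (limma), so *Irf1* was not called. Its unadjusted p-value went up to 0.0550 when sg*Trp53* replicate 2 was omitted and to 0.0634 without sg*Trp53* replicate 3 (limma). *Irf9* and *Stat2*, parts of the ISRE-binding complex, overlapped between the genotypes: *Irf9* ranged from 22.6 to 36.1 RPKM across the sg*Trp53* lines and from 9.65 to 27.1 across the sg*Kmt2c* lines, and *Stat2* from 2.34 to 5.39 and from 2.23 to 4.54. *Irf7*, the factor that amplifies interferon production, had 1 to 12 reads per line and was highest in sg*Kmt2c* replicate 1.

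**Figure D3:**
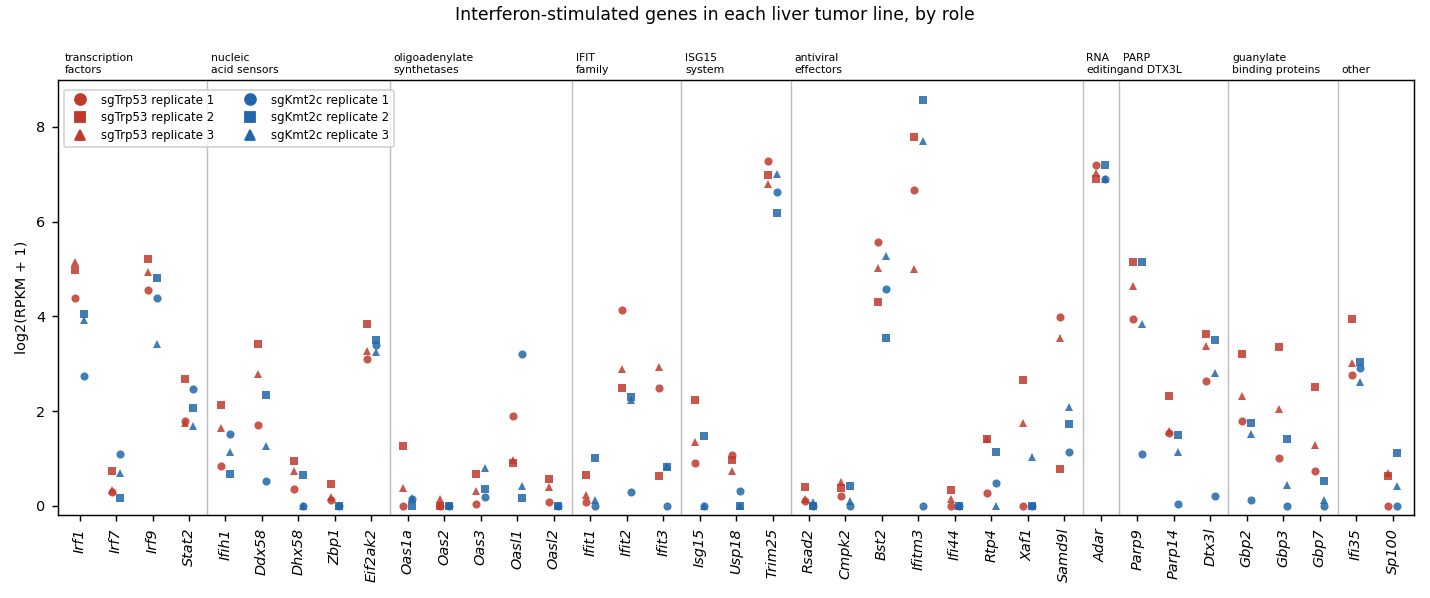
Level of each of the 37 measured interferon-stimulated genes in each line (y axis, log2(RPKM + 1)), grouped by role from left to right. Red points are the sg*Trp53* lines and blue points the sg*Kmt2c* lines, with a circle, square or triangle for replicate 1, 2 or 3. *Adar*, *Trim25* and *Ifitm3* stand highest, and the blue circle of sg*Kmt2c* replicate 1 falls to 0 for *Ifitm3* and near 0 for *Parp14*, *Dtx3l*, *Gbp2* and *Ifit2*.

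The nucleic acid sensors detect viral RNA or DNA. None of the 3 tested passed the test. *Ddx58*, which encodes RIG-I, ranged from 2.24 to 9.75 RPKM across the sg*Trp53* lines and from 0.438 to 4.06 across the sg*Kmt2c* lines (log2 fold change -1.26, adjusted p = 0.616 in limma). *Ifih1*, encoding MDA5, spanned 0.779 to 3.37 against 0.595 to 1.86 RPKM, and *Eif2ak2*, encoding the kinase PKR, 7.57 to 13.3 against 8.57 to 10.4 RPKM, so both overlapped. The direction of *Eif2ak2* (log2 fold change -0.02) turned under median-of-ratios scaling. *Zbp1*, a sensor of Z-form nucleic acid, was under the filter, with 1, 4 and 2 reads in sg*Trp53* replicates 1, 2 and 3 and none in any sg*Kmt2c* line. *Dhx58* had 4 to 12 reads across the sg*Trp53* lines, 5 in sg*Kmt2c* replicate 2 and none in the other sg*Kmt2c* lines. At 3 reads, the limit that a count of 0 allows, neither gene can be called absent.

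The oligoadenylate synthetases make the messenger that activates RNase L, and all 5 members were under the filter. *Oasl2* had 1, 8 and 7 reads in sg*Trp53* replicates 1, 2 and 3 and 0 in each sg*Kmt2c* line. *Oas1a*, *Oas2* and *Oas3* had at most 15 reads in any line. *Oas1a* has near-identical copies, so its reads could have been split among them. *Oasl1*, named after its values were seen, ran the other way in sg*Kmt2c* replicate 1: it had 35, 10 and 14 reads across the sg*Trp53* lines, and 82, 1 and 3 reads in sg*Kmt2c* replicates 1, 2 and 3.

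The IFIT proteins bind foreign RNA. *Ifit2* (chr19:34550694-34576419) was at 16.7, 4.63 and 6.42 RPKM in sg*Trp53* replicates 1, 2 and 3 and at 0.222, 3.91 and 3.68 RPKM across the sg*Kmt2c* replicates. The genotypes did not overlap, but sg*Trp53* replicate 2 and sg*Kmt2c* replicate 2 lay close to each other. The means were 9.24 ± 6.49 and 2.60 ± 2.06 RPKM (SD, n = 3 each), the log2 fold change was -1.57 (standard error 0.676) and the adjusted p-value 0.592 (limma). Its highest line over its lowest was 74.9-fold, among the widest ratios of the members with a read in every line, but its lowest line had only 4 reads. *Ifit3*, under the filter, had 5 to 80 reads across the sg*Trp53* lines and 0 to 6 across the sg*Kmt2c* lines. *Ifit1* had at most 10 reads in any line. Unlike most members, *Ifit2* and *Ifit3* were not highest in sg*Trp53* replicate 2.

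In the ISG15 system, ISG15 is a ubiquitin-like modifier, USP18 removes it and also blocks receptor signaling, and TRIM25 is a ubiquitin ligase that promotes RIG-I signaling. *Trim25* was among the 3 members with the highest mean RPKM, at 156, 125 and 110 RPKM in the sg*Trp53* replicates and 97.9, 71.2 and 127 RPKM across the sg*Kmt2c* replicates. The genotypes overlapped through sg*Kmt2c* replicate 3 (log2 fold change -0.42, adjusted p = 0.681 in limma). *Usp18* was under the filter, with 12, 9 and 8 reads across the sg*Trp53* lines and 2, 0 and 0 across the sg*Kmt2c* lines, without overlap. *Isg15* itself had only 4, 15 and 8 reads in sg*Trp53* replicates 1, 2 and 3 and 0, 5 and 0 across the sg*Kmt2c* replicates. The hallmark transcript of the list was thus near the floor in all lines, and its adjusted p-value was 0.648 (limma).

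Among the antiviral effectors, *Ifitm3* (chr7:141009586-141010770), which blocks virus entry at membranes, was the most abundant member. It was at 100.1, 220.4 and 31.0 RPKM in sg*Trp53* replicates 1, 2 and 3, and at 0, 377 and 206 RPKM across the sg*Kmt2c* replicates. Replicate 1 of sg*Kmt2c* had 0 reads where the other lines had 145 to 943, which allows up to 0.939 RPKM (3 reads), while the other sg*Kmt2c* lines were among the 3 highest of all. The genotypes overlapped, with a log2 fold change of -1.06 (95% confidence interval -6.34 to 4.21, adjusted p = 0.889 in limma) that turned to 1.65 without sg*Kmt2c* replicate 1. The neighbouring family members, named after these values were seen, did not share the gap alike. *Ifitm2* was at 82.6 RPKM in sg*Kmt2c* replicate 1 against 108 to 206 in the other lines, and *Ifitm1* had 0 reads there against 5 to 53. The IFITM genes are close copies, and reads that fit more than a single copy could have been dropped or split.

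The rest of the effector group was modest. *Bst2*, which encodes the virus-tethering protein tetherin, ranged from 18.7 to 46.8 RPKM across the sg*Trp53* lines and from 10.7 to 38.0 across the sg*Kmt2c* lines. *Samd9l* was uneven among the sg*Trp53* lines, at 14.9, 0.706 and 10.6 RPKM, and lay between 1.20 and 3.25 RPKM across the sg*Kmt2c* lines (adjusted p = 0.719, limma; named after its values were seen). *Xaf1* and *Rtp4* passed the filter with at most 19 reads in any line. *Rsad2*, encoding viperin, had 2, 7 and 3 reads across the sg*Trp53* lines and 0, 0 and 1 across the sg*Kmt2c* lines, without overlap, and *Cmpk2* and *Ifi44* had at most 9 reads in any line.

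*Adar*, the RNA-editing enzyme that keeps self RNA from triggering the sensors, was nearly even. It was at 147, 119 and 130 RPKM in the sg*Trp53* replicates and 119, 146 and 119 RPKM across the sg*Kmt2c* replicates, and the genotypes overlapped throughout. The log2 fold change of -0.04 (95% confidence interval -0.48 to 0.39, adjusted p = 0.946 in limma) changed sign under median-of-ratios scaling and without 3 of the 6 lines. Its highest line was 1.24-fold above its lowest. Its RPKM level relative to other genes is uncertain, because the table lists a length of 481 bases where the longest coding transcript in GENCODE vM1 has 5909. The same holds for 9 of the 37 members, whose listed length is less than 50% of the longest coding transcript, *Trim25* among them.

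*Parp9*, *Dtx3l* and *Parp14* are neighbours on chromosome 16, where PARP9 and the ubiquitin ligase DTX3L work as a pair and PARP14 is a related ADP-ribosyltransferase. *Parp14* (chr16:35832874-35871544) was at 1.90, 3.98 and 1.98 RPKM in sg*Trp53* replicates 1, 2 and 3 and at 0.0286, 1.83 and 1.20 RPKM across the sg*Kmt2c* replicates. Its ratio of highest to lowest line (139-fold) was the widest of any member with a read in every line, and its lowest line had a single read. The genotypes did not overlap, but the highest sg*Kmt2c* line was just below the lowest sg*Trp53* line. The means were 2.62 ± 1.18 and 1.02 ± 0.913 RPKM (SD, n = 3 each), and limma gave a log2 fold change of -0.92 (adjusted p = 0.630, standard error 0.466). In sg*Kmt2c* replicate 1 all 3 genes were nearly silent, with 4 reads for *Parp9*, 2 for *Dtx3l* and a single read for *Parp14*. In sg*Kmt2c* replicate 2, by contrast, *Parp9* was level with the highest sg*Trp53* line, at 34.7 RPKM in both. Nearby genes, chosen after these values were seen, were expressed in sg*Kmt2c* replicate 1: *Kpna1* was at 150.5 RPKM (154 to 202 in the other lines), *Fam162a* at 65.8 (80.2 to 145) and *Ccdc58* at 20.3 (20.4 to 31.4). The annotated spans of *Parp9* (35938470 to 35972605) and *Dtx3l* (35926511 to 35939151) overlap at their ends, and the library kit does not mark strand, so reads there cannot be assigned to either.

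The guanylate binding proteins are GTPases that attack vacuoles of intracellular pathogens and respond strongly to interferon gamma. *Gbp2* (chr3:142620602-142638008) was at 2.48, 8.22 and 3.98 RPKM in the sg*Trp53* replicates and at 0.0843, 2.37 and 1.86 RPKM across the sg*Kmt2c* replicates. All sg*Kmt2c* lines were below all sg*Trp53* lines, although sg*Kmt2c* replicate 2 reached nearly to sg*Trp53* replicate 1. The value of sg*Kmt2c* replicate 1 was a single read. The means were 4.89 ± 2.98 and 1.44 ± 1.20 RPKM (SD, n = 3 each), the log2 fold change was -1.31 (standard error 0.561) and the adjusted p-value 0.592 (limma). *Gbp7*, under the filter, had 10, 62 and 25 reads in sg*Trp53* replicates 1, 2 and 3 and 0, 4 and 1 across the sg*Kmt2c* replicates, without overlap. *Gbp3* had 4, 32 and 14 reads against 0, 4 and 1 (log2 fold change -1.52, adjusted p = 0.592 in limma), so that sg*Trp53* replicate 1 and sg*Kmt2c* replicate 2 had 4 reads each. All 3 genes stood highest in sg*Trp53* replicate 2 and lowest in sg*Kmt2c* replicate 1. They lie next to each other on chromosome 3 and are similar in sequence, so reads shared between them are uncertain. Outside these groups, *Ifi35* overlapped between the genotypes (5.78 to 14.5 against 5.15 to 7.17 RPKM), and *Sp100* had at most 3 reads in any line.

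For the members without overlap that were under the filter (*Zbp1*, *Oasl2*, *Usp18*, *Rsad2* and *Gbp7*) and for the 4 that were tested, an exact two-sided permutation test of the difference in means gave p = 0.1, the smallest p-value that 3 lines against 3 allow. The design therefore cannot pass 0.05 for a single gene on this test. Genes without overlap always reach this smallest value, so it was fixed by their selection and adds nothing to the lack of overlap.

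The rest of the pathway was read from a list of 73 further genes, of which 64 had a row, 61 had a read and 42 were tested. None passed an adjusted p-value of 0.05 (limma). At an unadjusted p-value of 0.05, 3 were lower and 2 higher, where 5.34% of all genes were lower and 3.25% higher, so the shares were close to the background. The median log2 fold change of the 42 was 0.02, near that of all genes (-0.09). Of the ligands, 4 of 10 had a row, and they had a single read of *Ifne* in sg*Kmt2c* replicate 3 and a single read of *Ifnz* in sg*Trp53* replicate 2, with none for *Ifnk* or *Ifng*. *Ifnb1* and the *Ifna* genes were not analysed here.

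All 10 receptors and signaling proteins were tested. *Ifnar1* was at 17.5 to 24.0 RPKM across the sg*Trp53* lines and 16.4 to 18.2 across the sg*Kmt2c* lines (log2 fold change -0.22, adjusted p = 0.754 in limma). *Jak1*, the kinase shared by the interferon receptors, was at 39.8, 58.1 and 46.2 RPKM against 19.8, 36.8 and 32.0 RPKM, without overlap (log2 fold change -0.71, unadjusted p = 0.0429, adjusted p = 0.573 in limma). For *Ifngr1*, the interferon gamma receptor, and *Jak2*, named after their values were seen, sg*Kmt2c* replicate 1 was highest, at 145 RPKM for *Ifngr1* (18.6 to 38.1 in the other lines) and 43.4 RPKM for *Jak2* (10.6 to 13.6). Low member levels in that line stood beside high levels of these receptor components.

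Upstream of interferon, 11 sensing and adaptor genes were tested, and *Irf3*, the factor that switches on *Ifnb1*, was at 15.7, 10.7 and 14.2 RPKM across the sg*Trp53* lines and 24.6, 25.1 and 17.6 RPKM across the sg*Kmt2c* lines (log2 fold change 0.69, unadjusted p = 0.0272, adjusted p = 0.528 in limma). None of the 7 negative regulators tested had an unadjusted p-value under 0.05. Of 15 further interferon-induced genes tested, 2 were lower and 1 was higher at that threshold, beside the 5.34% and 3.25% of all genes. *Irgm2*, an immunity-related GTPase, was at 1.19, 2.45 and 1.76 RPKM against 0.184, 0.235 and 0.203 RPKM, from 3 reads in each sg*Kmt2c* line (log2 fold change -1.19, adjusted p = 0.388 in limma). It passed the filter only through the sg*Trp53* lines, so that it had to differ. *Cxcl10*, a T cell chemoattractant, was at 3.90, 4.30 and 4.51 RPKM against 0.582, 0.248 and 3.21 RPKM (log2 fold change -1.37, adjusted p = 0.528 in limma). *Isg20*, an exonuclease, ran the other way, at 20.9, 11.1 and 19.7 RPKM against 57.7, 25.9 and 33.8 RPKM (log2 fold change 1.11, adjusted p = 0.503 in limma).

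The lines also differed in markers of cell type. The fibroblast and epithelial sums had their extremes in the lines that were highest and lowest in the interferon-stimulated genes. The leukocyte sum did not. The summed RPKM of 8 fibroblast markers was 15.0, 986 and 166 in sg*Trp53* replicates 1, 2 and 3 and 0.282, 149 and 110 across the sg*Kmt2c* replicates. On this sum the line with the highest members (sg*Trp53* replicate 2) was also highest, and the line with the lowest (sg*Kmt2c* replicate 1) lowest. Most of the 986 was *Col3a1*, at 814 RPKM. *Col1a2*, *Pdgfra* and *Pdgfrb* were also highest in sg*Trp53* replicate 2, whereas *Col1a1*, *Dcn* and *Thy1* were highest in sg*Trp53* replicate 3. The only read of *Lum* was in sg*Trp53* replicate 1. All 8 fibroblast markers were lower on average in the sg*Kmt2c* lines. The sum of the 5 epithelial markers had the opposite order at both ends, at 990, 62.6 and 723 RPKM against 5810, 237 and 672 RPKM. Each of the 5 was highest in sg*Kmt2c* replicate 1. *Krt8*, *Krt18* and *Epcam* were lowest in sg*Trp53* replicate 2, whereas *Krt19* and *Cdh1* were lowest in sg*Kmt2c* replicate 2, at 7.06 and 0.306 RPKM. The labels state that the cells had been passaged until no fibroblasts were seen. In bulk RNA, fewer cells of a type and less RNA per cell cannot be told apart.

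The 8 macrophage and leukocyte markers summed to 47.1, 21.9 and 58.7 RPKM across the sg*Trp53* lines and 6.28, 5.51 and 15.4 RPKM across the sg*Kmt2c* lines, without overlap. In the sg*Trp53* lines most of this was *Lyz2* (29.0, 17.1 and 45.3 against 0, 0.214 and 12.4 RPKM) and *Csf1r*, and in sg*Kmt2c* replicates 1 and 2 most was *Cd68*. All 6 with a read were lower on average in the sg*Kmt2c* lines, while *Cd3e* was at 0. *Siglech*, which marks the interferon-producing plasmacytoid dendritic cell, had no read in any line, the 4-gene list to which it belongs summed to 35.7 to 54.6 RPKM against 24.0 to 44.5 RPKM, mostly through *Bst2*, itself a member, and the widely expressed *Tcf4*, and the 5 endothelial markers did not exceed 1.27 RPKM in sum. The 6 hepatocyte markers summed to 1.21 to 4.65 RPKM across the sg*Trp53* lines and 1.28 to 23.0 RPKM across the sg*Kmt2c* lines. The part of fibroblast, epithelial and leukocyte RNA in the member levels was not tested.

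**Figure D4:**
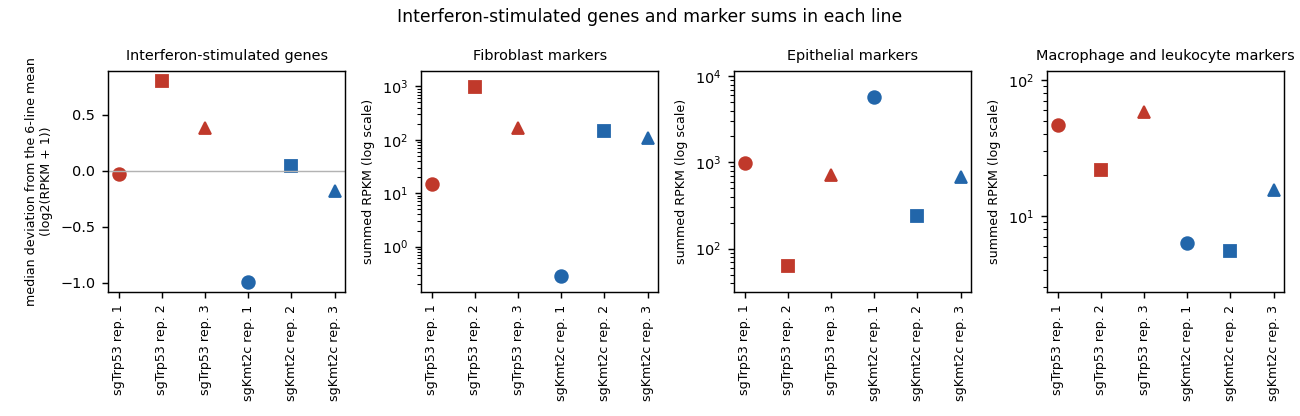
Median deviation of the 21 tested interferon-stimulated genes from their mean over the 6 lines (left, log2(RPKM + 1)) beside the summed RPKM of fibroblast, epithelial, and macrophage and leukocyte markers (log axes), for each line. Red marks sg*Trp53* and blue sg*Kmt2c*. The line highest in interferon-stimulated genes, sg*Trp53* replicate 2 (0.81), is highest in the fibroblast sum (986 RPKM, mostly *Col3a1*) and lowest in the epithelial sum (62.6 RPKM). Replicate 1 of sg*Kmt2c* (-0.99) is lowest in the fibroblast sum (0.282 RPKM) and highest in the epithelial sum (5810 RPKM).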

How the data were processed

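RNA of 6 mouse liver tumor lines, 3 *Myc*; sg*Trp53* and 3 *Myc*; sg*Kmt2c*, was compared by genotype, with groups from the sample labels. Per the labels and methods, the authors trimmed reads with Trimmomatic, mapped them with STAR on GRCm38 and ran HTSeq to count reads in genes. The deposited unit is RPKM (FPKM in the wording of the methods), computed on 1 listed transcript length for each gene. The table has 21065 rows, 209 without values, and 6 columns of other samples were not used. The table of the authors' own comparison (fold changes and p-values from DESeq2) was not used. The sample sheets place every library in the same flow cell lanes.

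Reads were recovered as RPKM times the listed length, and 100% of the nonzero values were whole reads within a tolerance of 0.001 of a read. Intervals from them cover counting error only. The test was limma 3.58.1 in R 4.3.3 (mean-variance trend) on log2(RPKM + 1) in a 2-group model of genotype, adjusted over 11617 genes by Benjamini-Hochberg. Fold changes on that scale understate the change of low genes. The test was also run on simulated data. A gene is called at an adjusted p-value under 0.05.

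The members, the pathway and marker lists and the tests were chosen with earlier results of these data known, so no test of the list as a whole was run. Values in every line are given for members with an unadjusted p-value under 0.05 or without overlap, for the 3 of highest mean RPKM and the 3 with the widest ratio between lines (defined where no line is at 0). Pathway genes are named at the same unadjusted threshold, with *Jak1*, *Ifnar1* and *Ifnb1* besides, and others are marked as chosen after their values were seen. Plots were drawn with matplotlib 3.10.9. Some items are not reported here.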

Additional observations from a re-analysis of the deposited data

How the results depend on the processing

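No member passed an adjusted p-value of 0.05 under any of the 12 alternatives, in either direction, and no member was higher at an unadjusted 0.05 under any of them. The count lower at an unadjusted p-value of 0.05, which was 1, became 5 of 37 without the filter on low values (*Irf1*, *Zbp1*, *Oasl2*, *Usp18* and *Gbp7*; 4.92% of all genes in that fit), 6 of 21 with a replicate block (5.64%) and 2 with sg*Kmt2c* replicates 2 and 3 averaged as 1 sample (5.02%). Over the fits that leave out each line in turn it ran from 0 without sg*Trp53* replicate 3 (2.75% of all genes) to 9 without sg*Kmt2c* replicate 2 (5.11%), and it was 5 without sg*Trp53* replicate 1 (3.83%) and 2 when sg*Trp53* replicate 2 was omitted (3.42%). The sample titles give only a replicate number for each line. Lines with the same number deviated together with correlations across genes of 0.192, 0.399 and 0.0316, against -0.284 to 0.152 for lines with unlike numbers. Whether same-numbered lines share more than the number was not tested. The block left 0 of all genes past the adjusted threshold. The median log2 fold change of the members stayed below 0 throughout, from -1.39 (voom) to -0.46 (no filter, which adds genes near 0), with -1.35 at a pseudocount of 0.1, and from -1.15 to -0.56 with a line left out. Over all genes the count past an adjusted p-value of 0.05 was 15, and 6 at a pseudocount of 0.1, 5 without the filter, 14 under median-of-ratios scaling, 4 in voom, 0 with the averaged lines and 0 to 8 with a line left out. Median-of-ratios scaling moved the median of all genes from -0.09 to -0.02. Of 336 fold changes of 28 genes under the alternatives, 325 kept their direction. Median-of-ratios scaling turned *Eif2ak2* to 0.0544 and *Adar* to 0.0344. Over the leave-one-out fits the log2 fold change ran from -0.17 to 0.202 for *Eif2ak2*, from -0.144 to 0.0346 for *Adar*, from -0.186 to 0.312 for *Stat2* and from -2.64 to 1.65 for *Ifitm3*. For *Eif2ak2*, *Adar* and *Stat2* the cause was not tested, and *Ifitm3* turned because sg*Kmt2c* replicate 1 has no read. Depth limits the 16 members under the filter, whose reads per line are mostly under 20.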
